A study of Mus musculus with 24 samples.

Results

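The 10 genes described here encode enzymes that remove superoxide and peroxides: the glutathione peroxidases Gpx1, Gpx3 and Gpx4, the superoxide dismutases Sod1, Sod2 and Sod3, the peroxiredoxins Prdx1, Prdx3 and Prdx5, and the thioredoxin reductase Txnrd1. They were taken by name from a table of 36144 genes, and all 10 were among the 13129 genes with enough reads to be tested. The choice was made with earlier results of these data known. Shares of all genes given below therefore serve as scale and are no independent test of the members. Their transcripts were measured by polyadenylated RNA sequencing of interscapular brown fat, which makes heat, in 24 mice of 6 to 8 months. The tissue was taken 30 min after the animals received deschloroclozapine (DCZ), a ligand of muscarinic designer receptors, or saline. The 4 groups were Th-Cre mice given DCZ, Th-Cre mice given saline, WT mice given DCZ and WT mice given saline, with 6 mice in each group, 3 male and 3 female. Th-Cre mice carry Cre recombinase at the tyrosine hydroxylase gene, which is active in catecholamine-making cells such as sympathetic neurons, and their strain is labelled B6.129X1- Tht1(cre)Te/Kieg, while WT mice are labelled C57Bl/6J. Strain background and Cre can therefore not be told apart. Which designer receptor was used, and how it reached the cells, is not stated in the labels.

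On GRCm38 (GENCODE M21) the glutathione peroxidase genes lie at chr9:108338903-108340343 (Gpx1), chr11:54902453-54910377 (Gpx3) and chr10:80047166-80056439 (Gpx4), all on the plus strand. The dismutase genes, also on the plus strand, lie at chr16:90220754-90226329 (Sod1), chr17:13006846-13040063 (Sod2) and chr5:52363791-52371418 (Sod3). Prdx1 lies at chr4:116685544-116700822 and Txnrd1 at chr10:82833951-82897712, both on the plus strand, while Prdx3 (chr19:60864051-60874556) and Prdx5 (chr19:6906697-6910106) lie on the minus strand.

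As background, superoxide dismutases turn superoxide into hydrogen peroxide, Sod1 in the cytosol, Sod2 in the mitochondrial matrix and Sod3 outside the cell. Glutathione peroxidases and peroxiredoxins then reduce hydrogen peroxide and organic peroxides, the first with glutathione and the others mostly with thioredoxin, which thioredoxin reductases recharge at the expense of NADPH. Gpx4 also reduces lipid peroxides within membranes and so protects cells from ferroptosis. Brown adipocytes are packed with mitochondria and make peroxides when they burn fuel for heat.

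Of the 10 genes, 4 encode enzymes whose active site holds selenocysteine, an amino acid specified by a TGA codon that would otherwise end translation. That codon is shown because it sets Gpx1, Gpx3, Gpx4 and Txnrd1 apart from the other 6, for which the annotation lists none. The coding sequence around it was read from GENCODE M21 on GRCm38, with TGA in capitals.
Gpx1: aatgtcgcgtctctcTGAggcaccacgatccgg
Gpx3: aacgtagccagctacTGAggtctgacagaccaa
Gpx4: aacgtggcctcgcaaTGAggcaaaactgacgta
Txnrd1: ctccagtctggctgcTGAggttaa
The codon was number 47 in Gpx1 (chr9:108339451-108339453), 73 in Gpx3 (chr11:54907256-54907258) and 73 in Gpx4 (chr10:80054737-80054739), all on the plus strand. In Txnrd1 it was codon 498 (chr10:82896037-82896039, plus strand), with a single glycine codon between it and the stop codon. These 4 genes did not move together in the comparisons below.

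Promoters were searched for the 2 forms of the core of the antioxidant response element, TGACNNNGC and TGAGNNNGC, which NRF2 is known to bind, on both strands of the 250 bases before each RefSeq start (GRCm38.p6). The 9 genes with an entry have 14 listed promoters, of which 3 (21.4%), each of a different gene, held a match, and each match was TGACNNNGC read on the minus strand. Of all 32851 listed promoters, 10.2% held TGACNNNGC, 14.4% held TGAGNNNGC and 23% held either. The members' share was near that of all promoters for either form and above that for TGACNNNGC, and it rests on 14 promoters. The stretches with a match are shown because Sod1, Prdx1 and Txnrd1 were the members that held it. The match is in capitals.
Sod1: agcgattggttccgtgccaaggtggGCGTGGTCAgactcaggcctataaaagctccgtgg
Prdx1: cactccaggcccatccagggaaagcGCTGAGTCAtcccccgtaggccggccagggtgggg
Txnrd1: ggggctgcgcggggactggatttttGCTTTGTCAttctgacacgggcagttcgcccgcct
All 3 stretches lie on the plus strand, at chr16:90220681-90220740 for Sod1, chr4:116685441-116685500 for Prdx1 and chr10:82859089-82859148 for Txnrd1. The match begins 56 bases before the start in Sod1, 133 in Prdx1 and 92 in Txnrd1, where 1 of the 3 listed starts held it. A match is a run of letters and not evidence of binding.

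Libraries held 11.9 to 22.9 M estimated counts, and the members had 587 to 59144 counts in a library. Ucp1, which marks brown adipocytes, lay between 1752 and 6533 CPM (counts per 1 M reads, scaled by TMM) in all 24 libraries. Th, from which Cre is driven, gave 1 read over all libraries, so the targeted gene could not be checked in this tissue. Summed levels of 13 skeletal muscle markers exceeded 100 CPM in 6 libraries: Th-Cre DCZ DN2075 (690) and DN2091 (143), Th-Cre saline DN2094 (1550), DN2086 (583) and DN2087 (167), and WT saline 12 (359). Of these 6 libraries, 5 were Th-Cre and 4 were female. Library numbers of all WT mice precede those of all Th-Cre mice, so genotype and library order cannot be told apart. In bulk tissue, fewer cells of a type and less RNA per cell cannot be told apart either.

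Per kilobase of gene model, Gpx3 and Gpx4 were the most abundant, with means of 1083 ± 379 and 959.8 ± 179 CPM per kb over the 24 libraries (SD). Gpx3, the secreted glutathione peroxidase of plasma, was above Gpx4 in 14 of 24 libraries, so their order did not hold beyond the spread. Sod1 came next at 597 ± 78.7 CPM per kb and was below Gpx4 in all 24. Gpx1, the glutathione peroxidase of cytosol and mitochondria, and Prdx5, a peroxiredoxin of mitochondria, peroxisomes and cytosol, were level at 209.7 ± 41.6 and 209 ± 34.2 CPM per kb, with Gpx1 the higher in 12 of 24. Prdx3, the peroxiredoxin of the mitochondrial matrix, followed at 179 ± 16.7, and Prdx5 was above it in 16 of 24 libraries. Prdx1, the main cytosolic peroxiredoxin, had 153 ± 12.4 CPM per kb and was below Prdx3 in 23 of 24. Sod2 (103 ± 12.7), Sod3 (42.7 ± 6.69) and Txnrd1 (16.5 ± 2.09) closed the order, each below its neighbour in all 24 libraries. The order depends on the annotated length, which is 5861 bases for Sod2. Without division by length, Sod2 had means of 601.6 CPM in males and 602.4 in females, above Sod1 at 398.5 and 366.1 CPM.

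**Figure D1:**
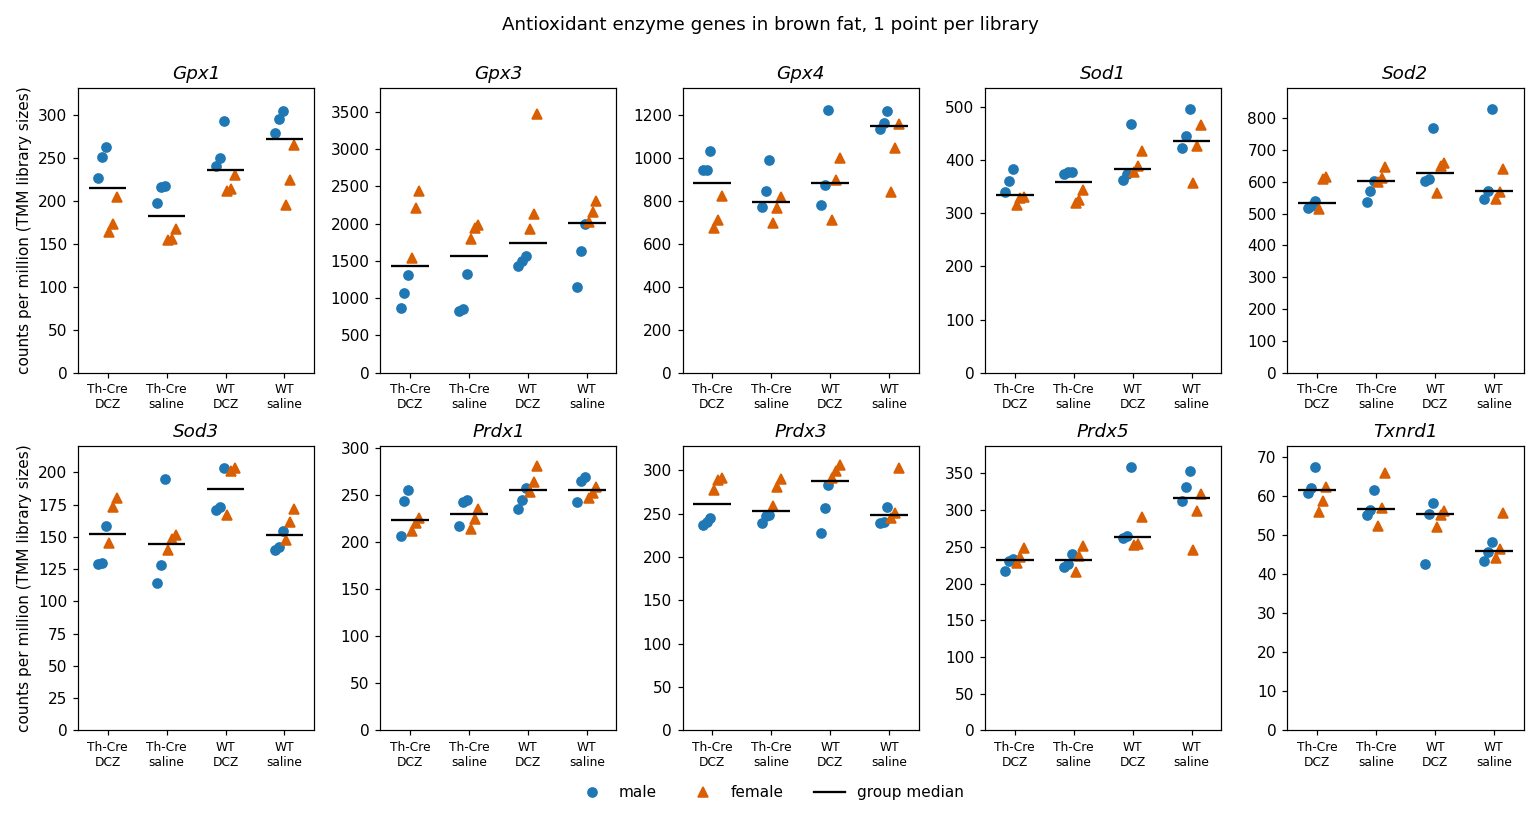
CPM of each of the 10 genes (vertical axis, from 0) in the 4 groups, 1 point per library, circles for males and triangles for females, with the group median as a black line. Prdx5 of all Th-Cre DCZ libraries lies below all WT DCZ libraries, and Gpx3 of males lies below that of females in each group.

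The first comparison asked how Th-Cre mice differ from WT mice when neither has received the ligand. After saline, Gpx1, Gpx4, Sod1 and Prdx5 were lower in Th-Cre than in WT tissue and Txnrd1 was higher, by 1.23-fold. That is 5 of 10 members at an adjusted p under 0.05 (edgeR quasi-likelihood test, adjusted over all genes), against 24.9% of all genes tested (12.4% lower and 12.5% higher). The 4 lower genes stood at 0.708 to 0.810 of their WT level. The median log2 fold change of the members was -0.23, against -0.01 over all genes.

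Gpx1 ran from 155 CPM through a median of 183 to 217 CPM in Th-Cre saline libraries, against 195, 272 and 305 CPM in WT saline libraries. All 6 Th-Cre libraries lay below the WT median, and 3 lay below every WT library. The log2 fold change was -0.50 ± 0.07 (SE, adjusted p = 0.000521), the largest drop among the members. Gpx4 had a lowest value of 699, a median of 796 and a highest value of 992 CPM in Th-Cre saline tissue, against 841, 1148 and 1221 CPM in WT saline tissue. Its groups overlapped, with 4 of 6 Th-Cre libraries below every WT library, and its log2 fold change was -0.42 ± 0.10 (adjusted p = 0.00621). Of Gpx4's 31-base words, 74.1% also occur in other genes, mostly the pseudogene Gpx4-ps2, so its counts may be split with that copy. Gpx3 was at 830.2, 1563 and 1986 CPM (lowest, median and highest) in Th-Cre saline, against 1154, 2008 and 2303 CPM in WT saline, a log2 difference of -0.43 ± 0.16 with an adjusted p of 0.0517. It passed the threshold on leaving out Th-Cre DCZ DN2075, Th-Cre saline DN2089, WT DCZ 6 or 10 or WT saline 11 (adjusted p 0.0331 to 0.0493).

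Sod1 was at 319, 359.6 and 378 CPM (lowest, median and highest) in Th-Cre saline libraries, against 356, 436 and 496 CPM in WT saline libraries. All 6 Th-Cre values lay below the WT median, with a log2 fold change of -0.30 ± 0.07 (adjusted p = 0.00424). Sod1 shares 35.4% of its 31-base words with other genes, mainly Gm8566, and overlaps Scaf4 on the other strand. Sod2 had 536, 602 and 647 CPM in Th-Cre saline and 545, 571 and 828 CPM in WT saline, a log2 difference of -0.05 with a 95% interval of -0.246 to 0.14. Sod3 had 114, 144 and 195 CPM in Th-Cre saline and 139.8, 151 and 172 CPM in WT saline, a log2 difference of -0.06 with an interval of -0.268 to 0.148. The mitochondrial and the extracellular dismutase thus gave intervals that hold both small gains and small losses.

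Prdx5 was the peroxiredoxin with a called difference. It ran over 215, 232 and 251 CPM (lowest, median and highest) in Th-Cre saline tissue, against 246, 316 and 353 CPM in WT saline tissue, and 5 of 6 Th-Cre libraries lay below every WT library. The log2 fold change was -0.42 ± 0.08 (adjusted p = 0.00189). Prdx5 overlaps Trmt112 on the other strand, and 30.8% of its 31-base words also occur in other genes, mostly Trmt112. Reads from that shared stretch cannot be told apart without strand. Prdx1, which shares 18.1% of its 31-base words with copies such as Gm21399, was at 215 to 246 CPM in Th-Cre saline and 242 to 269 CPM in WT saline (log2 difference -0.15 ± 0.06, adjusted p = 0.0652). Prdx3 was at 239 to 289.6 CPM in Th-Cre saline and 239 to 302 CPM in WT saline (log2 difference 0.02, 95% interval -0.0981 to 0.148).

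Txnrd1, the cytosolic thioredoxin reductase, was the member that rose. It had 52.3, 56.6 and 65.8 CPM (lowest, median and highest) in Th-Cre saline libraries, against 43.3, 46.0 and 55.6 CPM in WT saline libraries. All 6 Th-Cre libraries were above the WT median and 4 were above every WT library, with a log2 fold change of 0.30 ± 0.08 (adjusted p = 0.00779).

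After DCZ, Sod1 and Prdx5 were lower in Th-Cre than in WT tissue, and no member was higher: 2 of 10 were called, against 13.8% of all genes tested (7.02% lower and 6.75% higher). Prdx5 ran over 216, 232 and 248 CPM (lowest, median and highest) in Th-Cre DCZ libraries, against 252, 264 and 358 CPM in WT DCZ libraries. It was the only member whose groups did not overlap, which held for 3.48% of all genes in this comparison and, in that direction, for 1.68% (log2 fold change -0.27 ± 0.08, adjusted p = 0.0309). Sod1 ran over 315, 335 and 384 CPM in Th-Cre DCZ libraries, against 363, 384 and 467 CPM in WT DCZ libraries (log2 fold change -0.22 ± 0.07, adjusted p = 0.0391). In 5 of 6 Th-Cre libraries Sod1 was below every WT library. Neither call held on leaving out each library in turn. The Sod1 call was lost on leaving out WT DCZ 4, 5, 6 or 10 or Th-Cre DCZ DN2072, DN2205, DN2207, DN2075 or DN2097 (adjusted p 0.0502 to 0.12), and the Prdx5 call on leaving out WT DCZ 5 or 10 or Th-Cre DCZ DN2072, DN2075, DN2097 or DN2091 (0.0542 to 0.107).

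The other members had the same sign after DCZ as after saline, apart from Prdx3. Gpx1 was at 164 to 262 CPM in Th-Cre DCZ and 211 to 293 CPM in WT DCZ, a log2 difference of -0.18 ± 0.07 (adjusted p = 0.102). Txnrd1 was at 55.8 to 67.4 CPM in Th-Cre DCZ and 42.5 to 58.1 CPM in WT DCZ, with 5 of 6 Th-Cre libraries above every WT library (log2 difference 0.20 ± 0.08, adjusted p = 0.08). Sod3 (-0.29 ± 0.10, adjusted p = 0.0535), Prdx1 (-0.17 ± 0.06, 0.0578), Sod2 (-0.21 ± 0.09, 0.125) and Gpx3 (-0.38 ± 0.16, 0.113) missed the threshold. Sod3 passed it on leaving out Th-Cre DCZ DN2205 or DN2207, Th-Cre saline DN2087 or DN2089 or WT DCZ 1 or 4 (0.0153 to 0.0491), and Prdx1 on leaving out Th-Cre DCZ DN2091 or WT DCZ 1 or 3 (0.0316 to 0.0435). Gpx4 (-0.11 ± 0.10, 0.514) and Prdx3 (-0.07 ± 0.06, 0.437) were nearest to no difference.

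Over both treatments, 7 of 10 members were called, 6 lower and 1 higher, against 38% of all genes tested (19.4% lower and 18.6% higher). Gpx1 (log2 fold change -0.34 ± 0.05), Gpx3 (-0.40 ± 0.11), Gpx4 (-0.27 ± 0.07), Sod1 (-0.26 ± 0.05), Prdx1 (-0.16 ± 0.04) and Prdx5 (-0.34 ± 0.06) were lower in Th-Cre tissue, and Txnrd1 was higher (0.25 ± 0.05). Their adjusted p-values ran from 7.28e-05 for Gpx1 to 0.00748 for Gpx3. All 12 Th-Cre libraries lay below the WT median for Sod1 and Prdx5 and above it for Txnrd1. Sod3 (adjusted p = 0.0535), Sod2 (0.114) and Prdx3 (0.684) were not called, though Sod3 was on leaving out Th-Cre DCZ DN2205 or DN2207, Th-Cre saline DN2089 or WT DCZ 4 (0.00235 to 0.0453).

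**Figure D2:**
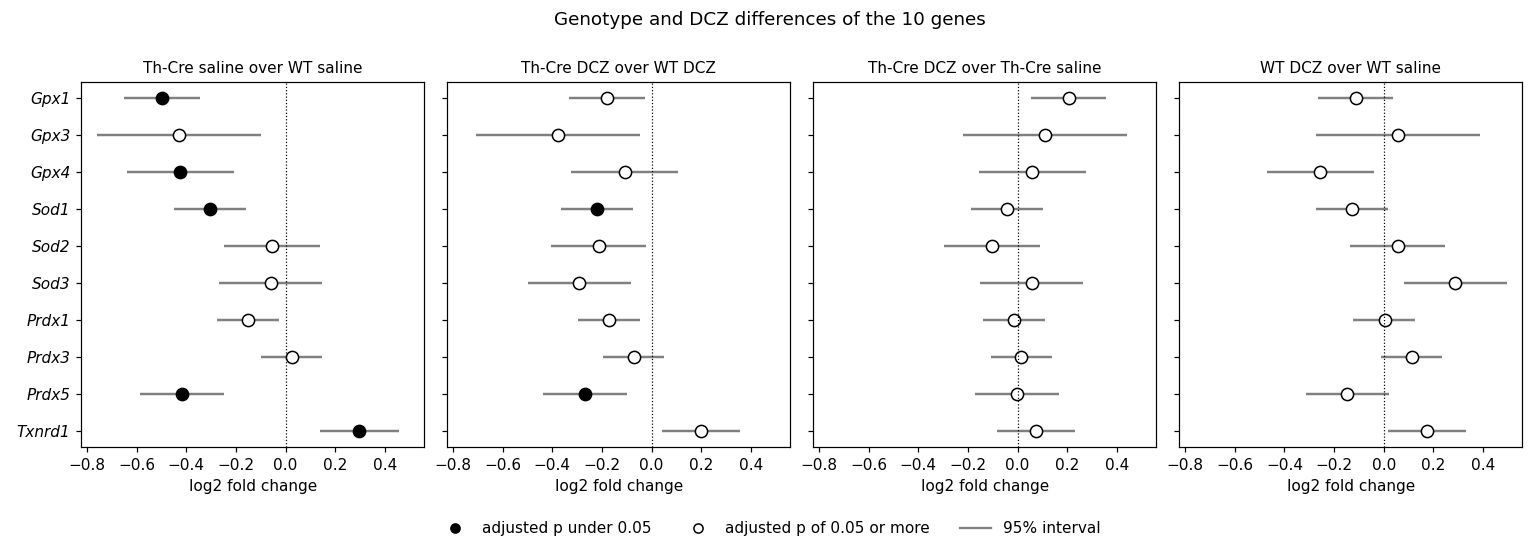
Log2 fold change (horizontal axis) of each gene in 4 comparisons, with its 95% interval as a grey bar, filled where the adjusted p was under 0.05. The left panel has 5 filled points, the next has 2, and the 2 panels of DCZ over saline have 0.

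Gene length and brown fat markers moved with genotype too. Genes with a model under 1 kb had a median log2 fold change of -0.29 in Th-Cre saline over WT saline, and 42.7% of them were lower and 3.3% higher. Genes of 1 to 2 kb, a class that holds Gpx1, Gpx3, Prdx1, Prdx3 and Prdx5, had a median of -0.11, with 16.7% lower and 3.91% higher. Genes over 4 kb had a median of 0.08, with 7.59% lower and 19.5% higher. In each library the log2 level of short genes relative to long ones ran from -0.208 to -0.113 in Th-Cre DCZ and from -0.231 to -0.0811 in Th-Cre saline, against -0.0924 to 0.426 in WT DCZ and -0.0673 to 0.339 in WT saline.

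The 4 members lower in Th-Cre saline tissue were the 4 shortest, Sod1 (641 bases), Gpx4 (959), Gpx1 (1072) and Prdx5 (1262), while Txnrd1 has 3325 bases. With a smooth length trend taken out of each library, a setting chosen after the data were seen, Gpx1 (log2 fold change -0.31 ± 0.06, adjusted p = 0.00332), Prdx5 (-0.26 ± 0.06, 0.00842) and Txnrd1 (0.26 ± 0.07, 0.0168) were called after saline. Sod1 then stood at 0.01 ± 0.05 (adjusted p = 0.892) and Gpx4 at -0.20 ± 0.09 (0.0955). With the trend removed, 19.2% of all genes tested were called after saline, 9.83% after DCZ and 32.6% over both treatments. After DCZ, Sod1 (-0.0038 ± 0.05, adjusted p = 0.973) and Prdx5 (-0.15 ± 0.06, 0.128) lost their calls under this setting, while Sod2 (-0.28 ± 0.09, 0.0437) and Sod3 (-0.33 ± 0.10, 0.035), which have 5861 and 3738 bases, fell. Over both treatments, Gpx1, Gpx3, Prdx5 and Txnrd1 kept their calls, with smaller log2 fold changes. Gpx1 stood at -0.17 ± 0.04 with the trend removed and -0.34 as fitted, Prdx5 at -0.21 ± 0.05 and -0.34, Gpx3 at -0.32 ± 0.12 and -0.40, and Txnrd1 at 0.21 ± 0.05 and 0.25. Gpx4, Sod1 and Prdx1 lost their calls, and Sod2 (-0.20 ± 0.06, 0.0163) and Sod3 (-0.22 ± 0.07, 0.0172) were lower.

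**Figure D3:**
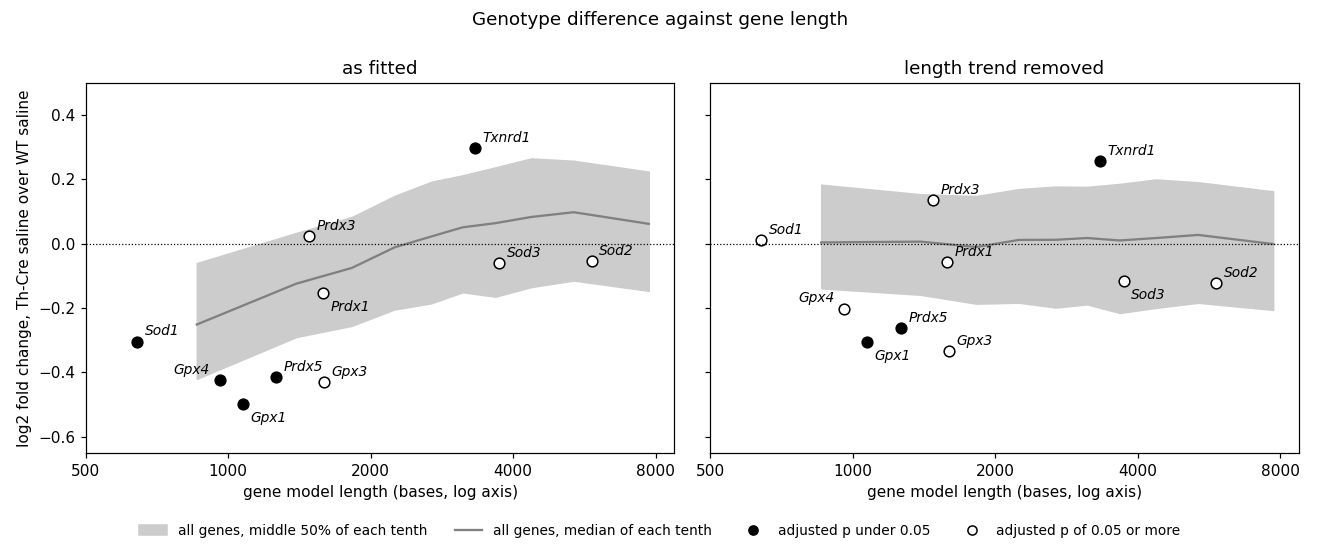
Log2 fold change of Th-Cre saline over WT saline (vertical axis) against gene model length in bases (log axis), as fitted on the left and with the length trend removed on the right. Grey shows the median and middle 50% of all genes in 10 bins by length, points are the 10 genes, filled where called, and Sod1 moves to 0.01 on the right while Gpx1, Prdx5 and Txnrd1 stay filled.

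The summed level of 12 brown adipocyte markers was 10800 to 12800 CPM in Th-Cre DCZ and 11300 to 13400 CPM in Th-Cre saline, below the 14100 to 17700 CPM of WT DCZ and the 13700 to 16100 CPM of WT saline. Over both treatments 5 of the 12 were lower and 1 was higher. Ucp1, the uncoupling protein of thermogenesis, was at 1752 to 3828 CPM in Th-Cre DCZ and 2550 to 3981 CPM in Th-Cre saline, against 4292 to 6533 CPM in WT DCZ and 3843 to 6159 CPM in WT saline (log2 fold change over both treatments -0.70 ± 0.09, adjusted p = 1.49e-05). Of 7 endothelial markers 5 were lower, with sums of 513 to 655 CPM in Th-Cre DCZ and 516 to 579 CPM in Th-Cre saline, against 547 to 851 CPM in WT DCZ and 524 to 968 CPM in WT saline. Of 8 smooth muscle and pericyte markers 5 were lower, with sums of 476 to 536 CPM in Th-Cre DCZ and 475 to 514 CPM in Th-Cre saline, against 518 to 621 CPM in WT DCZ and 505 to 693 CPM in WT saline. Of 13 skeletal muscle markers 10 were higher over both treatments, with sums of 48.1 to 690 CPM in Th-Cre DCZ and 47 to 1550 CPM in Th-Cre saline, against 55.5 to 87.8 CPM in WT DCZ and 52.3 to 359 CPM in WT saline. Of 7 macrophage markers 2 were higher, and of 6 lymphocyte markers, of which 5 were tested, 3 were lower. The neutrophil markers S100a9 (0.95 ± 0.26, adjusted p = 0.007) and S100a8 (0.65 ± 0.21, 0.0158) were higher. So were the white adipocyte markers Nrip1 (0.42 ± 0.10, 0.00173) and Hoxc8 (0.62 ± 0.21, 0.024), while S100b of Schwann cells was lower (-0.42 ± 0.12, 0.01). No other tested marker of these 3 lists was called. The part of these cell types in the members' differences was not tested. Without the 6 libraries with muscle transcripts, a choice made after the data were seen, 1 member (Gpx1, log2 fold change -0.52, adjusted p = 0.0299) was called after saline with 3 Th-Cre against 5 WT libraries, and 0 after DCZ. Gpx4 (-0.52), Prdx5 (-0.49), Txnrd1 (0.33) and Sod1 (-0.27) had adjusted p-values of 0.0505 to 0.102 there. Over both treatments 6 of 7 calls remained without these libraries, and Gpx3 lost its call (adjusted p = 0.0838). With all 24 libraries and the summed muscle level as a further term, also chosen after the data were seen, 5 members were called after saline, 2 after DCZ and 7 over both treatments. Calls over all genes changed with the setting too. Apart from omissions of 1 library, they ran from 6 to 3495 after saline, 30 to 2155 after DCZ and 908 to 5122 over both treatments. A change in member calls under a setting is therefore not a result about the members.

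The ligand itself was compared within each genotype. In Th-Cre tissue, DCZ over saline gave 0 called members, against 0.0229% of all genes tested, and 1 member, Gpx1, had an unadjusted p under 0.05, which 5.67% of all genes had. Gpx1 was at 164, 216 and 262 CPM (lowest, median and highest) in Th-Cre DCZ, against 155, 183 and 217 CPM in Th-Cre saline, a log2 difference of 0.21 ± 0.07 with an adjusted p of 0.655. The groups overlapped, with 3 of 6 DCZ libraries above every saline library. The 95% intervals of the other 9 members all held 0, the narrowest that of Prdx3 (-0.108 to 0.138) and the widest that of Gpx3 (-0.22 to 0.44).

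In WT tissue, DCZ over saline also gave 0 called members, against 0.00762% of all genes, with an unadjusted p under 0.05 for 3 (Gpx4, Sod3 and Txnrd1) and for 8.66% of all genes. Sod3, the extracellular dismutase, had 167, 187 and 204 CPM (lowest, median and highest) in WT DCZ and 139.8, 151 and 172 CPM in WT saline. All 6 DCZ libraries were above the saline median and 4 were above every saline library (log2 difference 0.29 ± 0.10, adjusted p = 0.527). Gpx4 stood at 714, 886 and 1224 CPM in WT DCZ and 841, 1148 and 1221 CPM in WT saline (-0.26 ± 0.10, adjusted p = 0.527). Txnrd1 had a log2 difference of 0.17 ± 0.08 (adjusted p = 0.537). The level of short genes relative to long ones had medians of 0.0266 in WT DCZ and 0.268 in WT saline. Its ranges overlapped, at -0.0924 to 0.426 in WT DCZ and -0.0673 to 0.339 in WT saline, and the difference was not tested. With the length trend removed, Sod3 stood at 0.27, Gpx4 at -0.19 and Txnrd1 at 0.16 (adjusted p 0.527 to 0.56). The difference between the 2 DCZ effects was called for 0 members, against 0.00762% of all genes, and 2 members and 7.46% of all genes had an unadjusted p under 0.05. It was 0.32 ± 0.10 for Gpx1 (adjusted p = 0.607) and 0.31 ± 0.15 for Gpx4 (0.657), with intervals of 0.103 to 0.534 and 0.0092 to 0.62 before adjustment for the number of genes. Genes under 1 kb, among them Gpx4, had a median of 0.08 for this difference, and genes of 1 to 2 kb, among them Gpx1, had 0.01. With the length trend removed it was 0.27 for Gpx1 (adjusted p = 0.579) and 0.26 for Gpx4 (0.636). No DCZ call appeared for a member with DESeq2 or limma-voom either.

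The sexes differed in 4 of 10 members, against 8.07% of all genes tested (4.11% lower and 3.95% higher in males): Gpx1 and Gpx4 were higher in males, and Gpx3 and Prdx3 were lower. Both 12-mouse groups span all genotypes and treatments, and the model holds a mean for each of these. Gpx3 ran over 830.2, 1318 and 1993 CPM (lowest, median and highest) in males, against 1542, 2076 and 3469 CPM in females. All 12 males lay below the female median and 9 below every female, and within each of the 4 groups every male was below every female. In all 4 groups 0.259% of the genes tested were apart in that direction, and 0.449% in either. The log2 fold change of males over females was -0.76 ± 0.11 (adjusted p = 0.000173), so male tissue held 0.590 of the female level.

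Gpx1 went the other way. It ran over 198, 251 and 305 CPM in males, against 155, 199.6 and 266 CPM in females, and within each of the 4 groups every male was above every female, a pattern found in 0.19% of the genes tested. The log2 fold change was 0.37 ± 0.05 (adjusted p = 8.62e-05), or 1.29-fold. In Th-Cre DCZ tissue the 3 males had 227, 252 and 262 CPM and the 3 females 164, 173 and 204 CPM. In WT saline tissue the 3 males had 279.5, 296 and 305 CPM and the 3 females 195, 224 and 266 CPM. The glutathione peroxidase of cytosol and mitochondria and the secreted one were thus apart by sex in opposite directions in the same libraries.

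Prdx3 ran over 228, 243 and 283 CPM in males, against 245, 289 and 306 CPM in females. All 12 males lay below the female median, and males lay below all females of their group in 3 of 4 groups, the exception being WT saline; 2.56% of all genes were apart in at least 3 groups (log2 fold change -0.19 ± 0.04, adjusted p = 0.00634). Gpx4 ran over 774, 969 and 1224 CPM in males, against 675, 821 and 1160 CPM in females, a log2 fold change of 0.24 ± 0.07 (adjusted p = 0.0488). Its sexes were apart in Th-Cre DCZ and overlapped in the other 3 groups, a pattern whose share over all genes was not counted. That call was lost on leaving out any of 18 libraries and held on leaving out WT DCZ 1, 3 or 10, WT saline 8 or Th-Cre saline DN2089 or DN2094 (adjusted p over all 24 omissions 0.0187 to 0.0935).

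Sod1 was at 339.5 to 496 CPM in males and 315 to 466 CPM in females (log2 difference 0.13 ± 0.05, adjusted p = 0.122). Males were above all females of their group in both Th-Cre groups, and the sexes overlapped in both WT groups. The share of all genes with such a pattern was not counted, so it is not a result about Sod1. The intervals of the log2 difference between the sexes held 0 for Sod2 (-0.144 to 0.129), Sod3 (-0.264 to 0.0296), Prdx1 (-0.0684 to 0.108), Prdx5 (-0.0537 to 0.185) and Txnrd1 (-0.127 to 0.0963). Without Th-Cre saline DN2089 Sod3 was called lower in males (adjusted p = 0.0482). Terms that let the sex difference vary with genotype or with DCZ, added after the data were seen, were called for 0 members and for 0 of all genes. With the length trend removed the same 4 members were called, against 8.51% of all genes tested. Muscle markers also differed by sex, with 8 of 13 lower in males, and without the 6 libraries that held muscle transcripts Gpx1, Gpx3 and Prdx3 remained called and Gpx4 was not (adjusted p = 0.109). Of the brown adipocyte markers 3 were lower in males, Ucp1 among them (log2 fold change -0.33 ± 0.09, adjusted p = 0.0223), and 2 were higher. Of markers of other cell types, Dcn of fibroblasts (0.58 ± 0.09, 0.00019) and Cldn5 of endothelium (0.79 ± 0.18, 0.00729) were higher in males, and Des of smooth muscle and pericytes (-0.24 ± 0.06, 0.0173) and Retn of white adipocytes (-0.59 ± 0.16, 0.0208) were lower, each the 1 called marker of its list. The part of these cell types in the sex differences was not tested.

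**Figure D4:**
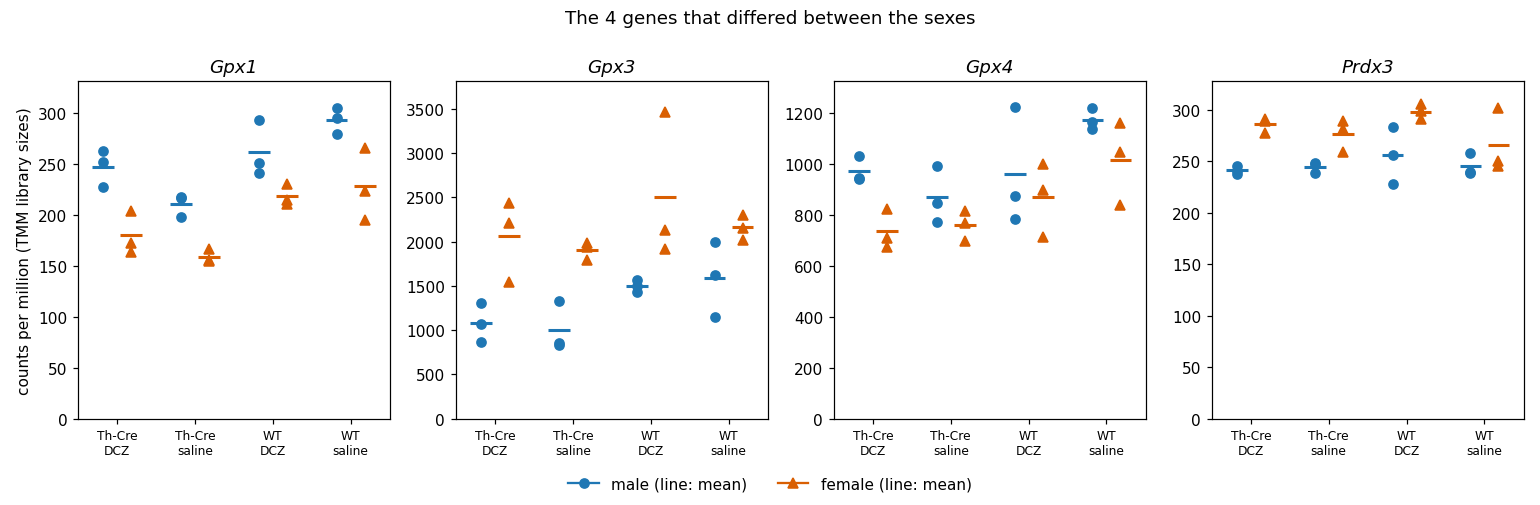
CPM (vertical axis, from 0) of Gpx1, Gpx3, Gpx4 and Prdx3 in each group, males as circles left of females as triangles, with the mean of 3 mice as a line. Males are above females for Gpx1 and below them for Gpx3 with no overlap in any of the 4 groups.

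Across libraries, with group means and sex taken out, the members did not move as a block: 20 of 45 pairs had a positive correlation. Gpx1 and Gpx4 had the highest (r = 0.751), followed by Gpx4 and Sod1 (0.634) and by Sod1 and Prdx5 (0.604), while Prdx5 and Txnrd1 had the lowest (-0.765). These are descriptions over 24 libraries, which also differ in the level of short against long genes. Among 7562 other genes with a mean of at least 10 CPM, Prdx5 was most like Ndufb7 (r = 0.952), a complex I subunit, and 2410015M20Rik (0.935), which at 623 and 755 bases are short too. Sod1 was most like Tomm7 (0.872), of the mitochondrial import pore, and Gm2000 (0.867). Gpx4 was most like Wbp1 (0.869) and Cuedc2 (0.855), and Gpx1 like Ptov1 (0.788) and Chchd6 (0.787). Prdx3 was most like Atp5a1 (0.859), the alpha subunit of ATP synthase, and Galm (0.850), and Gpx3 like Hsd17b10 (0.850) and Oat (0.830), both enzymes of the mitochondrial matrix. Txnrd1 was most like Wdr59 (0.848) and Rab6a (0.841), Sod2 like Igf2r (0.790) and Asl (0.759), Sod3 like Hacd2 (0.790) and Lamp1 (0.760), and Prdx1 like Eif1ax (0.803) and Kifc3 (0.749).

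Other genes of the antioxidant pathways were taken from 15 lists of 131 genes, of which 119 were tested. After saline 17 were higher and 16 lower in Th-Cre tissue, 27.7% of those tested, close to the 24.9% of all genes. After DCZ 8 were higher and 11 lower, or 16%, against 13.8% of all genes. Over both treatments 23 were higher and 24 lower, or 39.5%, against 38%. These shares and the values below are as fitted, and gene length moved with genotype here as well. Among all genes under 1 kb, 52.6% were lower and 4.43% higher over both treatments. Among those over 4 kb, 11.4% were lower and 29% higher. The part of gene length in the differences of the pathway genes was not tested. For DCZ over saline in Th-Cre and in WT tissue, and for the difference between them, 0 were called.

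Among partners of the members over both treatments, Ccs, the copper chaperone that loads Sod1, was lower (log2 fold change -0.22 ± 0.06, adjusted p = 0.0109). Of the remaining peroxiredoxins, Prdx4, of the endoplasmic reticulum (-0.51 ± 0.10, 0.000372), Prdx6 (-0.21 ± 0.04, 0.000473) and Prdx2 (-0.16 ± 0.05, 0.00817) were lower, while Srxn1, the sulfiredoxin that repairs overoxidised peroxiredoxins, was higher (0.26 ± 0.06, 0.00159). Gpx7, a glutathione peroxidase of the endoplasmic reticulum, was lower (-0.73 ± 0.13, 0.000166) at 1.44 to 5.65 CPM over the 24 libraries. Of 5 further thioredoxin system genes, mitochondrial thioredoxin Txn2 was lower (-0.23 ± 0.05, 0.000888) and Txnrd3 higher (0.25 ± 0.09, 0.0352). Of 13 tested genes of glutathione synthesis and reduction, 2 were higher and 4 lower. Glrx5, of mitochondrial iron-sulfur cluster assembly (-0.31 ± 0.06, 0.000333), and Gss, glutathione synthetase (-0.41 ± 0.10, 0.00317), fell, and Gclc, the catalytic subunit of the enzyme for the preceding step, rose (0.21 ± 0.06, 0.00738). Of 15 glutathione S-transferases, 5 were lower and 0 higher, led by Gstk1 (-0.32 ± 0.07, 0.00072), Gstp1 (-0.28 ± 0.06, 0.000919) and Gstt1 (-0.39 ± 0.09, 0.00118).

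Selenoprotein genes moved in both directions between the genotypes. Selenop, the secreted carrier of selenium, was at 484 to 583 CPM in Th-Cre DCZ and 458 to 559 CPM in Th-Cre saline, against 366 to 499 CPM in WT DCZ and 364 to 474 CPM in WT saline. Its log2 fold change over both treatments was 0.30 ± 0.06 (adjusted p = 0.000318). Of 10 tested genes of selenoprotein synthesis and supply 3 were higher and 1 lower, with Secisbp2l higher (0.36 ± 0.08, 0.000992) and Trnau1ap lower (-0.22 ± 0.06, 0.00577). Of 12 other selenoproteins 2 were higher and 3 lower, with Selenom (-0.59 ± 0.11, 0.000336), Selenoh (-0.43 ± 0.08, 0.000414) and Selenoo (0.20 ± 0.05, 0.00578) first by adjusted p.

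Of 12 genes of NADPH supply 5 were higher in Th-Cre tissue and 1 was lower. Idh1, cytosolic isocitrate dehydrogenase (0.36 ± 0.06, adjusted p = 0.000147), Me1, malic enzyme (0.98 ± 0.21, 0.000948), and Nadk2, the mitochondrial NAD kinase (0.30 ± 0.07, 0.00246), were higher, and Idh2, the mitochondrial isocitrate dehydrogenase, was lower (-0.29 ± 0.07, 0.00341). Nnt, the mitochondrial transhydrogenase, lay between 1.41 and 3.38 CPM over all libraries (0.10 ± 0.15, 0.632). Of 18 genes of NRF2 control and classical NRF2 targets 3 were higher and 2 lower, with Nfe2l1 (0.45 ± 0.08, 0.000145) and Bach1 (0.16 ± 0.06, 0.032) higher and Cbr1 (-0.33 ± 0.09, 0.00804) lower. Nfe2l2, which encodes NRF2, had a log2 difference of 0.07 ± 0.04 (adjusted p = 0.24). Cat, catalase (0.11 ± 0.05, 0.108), and Gsr, glutathione reductase (0.11 ± 0.06, 0.163), were not called over both treatments, though Cat was higher after saline, at 607 to 722 CPM in Th-Cre against 518 to 607 CPM in WT (0.25 ± 0.07, 0.0149).

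Of the smaller lists over both treatments, ferritin light chain Ftl1 (-0.32 ± 0.07, adjusted p = 0.00129) and transferrin receptor Tfrc (-0.60 ± 0.23, 0.0391) were the 2 called of 6 genes of metal storage. Lpcat3 (0.23 ± 0.06, 0.0042) and Acsl4 (0.22 ± 0.08, 0.0359), which place polyunsaturated fatty acids in phospholipids, were the 2 called of 6 genes of lipid peroxide handling. Maob (0.37 ± 0.08, 0.00113), Aox1 (0.22 ± 0.05, 0.00229) and Nox4 (0.72 ± 0.27, 0.0391), which produce peroxide or superoxide, were the 3 called of 11 such genes, and all were higher. Msrb3, a methionine sulfoxide reductase, was higher (0.27 ± 0.06, 0.00133).

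**Figure D5:**
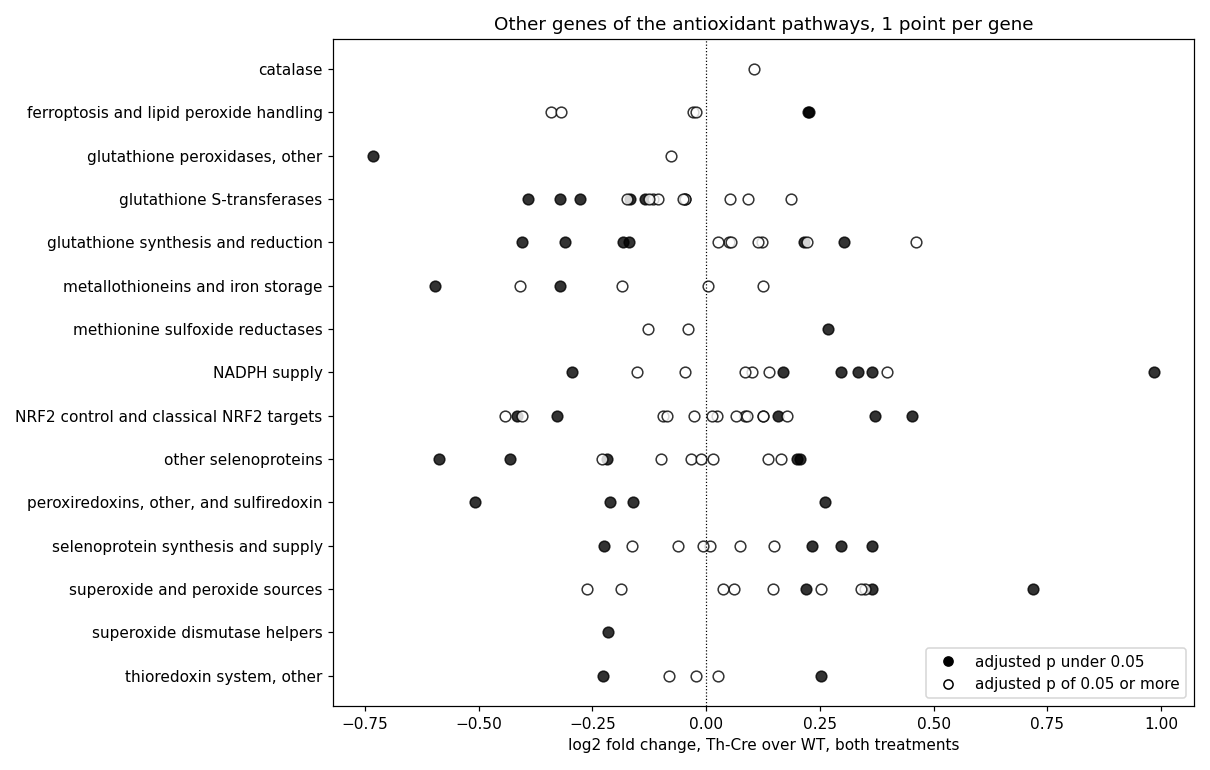
Log2 fold change of Th-Cre over WT over both treatments (horizontal axis) for the 119 tested genes of 15 lists (rows), 1 point per gene, filled where the adjusted p was under 0.05. Filled points lie on both sides of 0, 23 higher and 24 lower.

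Between the sexes 9 of the 119 pathway genes were higher in males and 3 were lower, 10.1% of those tested, against 8.07% of all genes. Of the 15 glutathione S-transferases 5 were higher in males, led by Gstt1 (log2 fold change 0.67 ± 0.09, adjusted p = 2.47e-05), Mgst3 (0.36 ± 0.07, 0.00335) and Gsta3 (1.47 ± 0.31, 0.00409). Among the selenoproteins Msrb1 (-0.33 ± 0.07, 0.0042) and Dio2, the deiodinase that activates thyroid hormone (-0.54 ± 0.15, 0.0288), were lower in males, and Selenoh (0.33 ± 0.08, 0.0152) and Selenoo (0.20 ± 0.05, 0.0238) were higher. Txn2, which serves Prdx3 in mitochondria, was lower in males as well (-0.19 ± 0.05, 0.0165), Txnrd3 was higher (0.31 ± 0.09, 0.0431), and so was Aox1 (0.20 ± 0.05, 0.0191). Nnt (-0.11), Nfe2l2 (-0.08), Selenop (-0.04), Cat (-0.02) and Gsr (0.01) had log2 differences between the sexes with adjusted p-values of 0.279 to 0.929.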

How the data were processed

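RNA from interscapular brown fat of 24 mice was sequenced after poly-A selection, per the labels' protocols. The authors deposited estimated counts per gene symbol as whole numbers, made with kallisto 0.44.0 and GRCm38.p6, per the submitters' processing notes. No source used here states which transcripts were indexed, how they were summed per gene, or whether strand was used. Pseudoaligned reads were 84.2 to 88.7 percent, as deposited by the authors. Each library is a separate mouse, per the labels, and mouse numbers pair no animals across groups.

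Genes were filtered with filterByExpr by group, which left 13129 of 36144 with at least 99.9% of reads. Levels are CPM on TMM library sizes. The edgeR 4.0.16 quasi-likelihood test (R 4.3.3) was fitted over all libraries with group means and sex, with Benjamini-Hochberg adjustment over all genes and a threshold of 0.05. SEs were derived from each log2 fold change and its F statistic, and 95% intervals use the fit's t distribution. The common biological coefficient of variation was 15.6%. The test was checked on simulated counts with the same dispersion for all genes and no sex difference, length trend or muscle-containing libraries. That check does not cover these features of the data.

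Alternatives were RLE and upper-quartile factors, other filters, DESeq2 1.42.0, limma-voom 3.58.1, a robust fit, no sex term, subsets of libraries, a muscle term and removal of the length trend (loess, span 0.5). Gene length is from GENCODE M21 for 99.9% of tested genes. Promoters are from RefSeq, with entries for 9 of 10 members. Members and lists were chosen with earlier results of these data known. Named pathway genes are the 3 of each list with the smallest adjusted p among those called, over both treatments and between the sexes, and Nnt, Cat, Gsr, Nfe2l2 and Selenop in any case. Prdx2, Idh2 and Dio2 were named after their values were seen. Likeness is Pearson's r of log2 CPM (prior count 2) after group means and sex were taken out. Shared 31-base words were counted between transcripts of GENCODE M21.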

Additional observations from a re-analysis of the deposited data

Results flagged for a closer look

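In 4 of the 40 sets of 6 libraries examined (10 genes in 4 groups), the gap between 1 library and its nearest neighbour was a larger part of the range than Dixon's 95% limit. Chance does so in about 1 in 20 sets of like samples, a rate that takes no account of the 3 males and 3 females in each set. Gpx3 was at 3470 CPM in WT DCZ 6, a female, against 1440 to 2130 CPM in the other WT DCZ libraries, and the other 2 females of the group had 1923 and 2130 CPM. Sod2 was at 828 CPM in WT saline 9, a male, against 545 to 642 CPM in the rest of its group. Prdx3 was at 302 CPM in WT saline 2, a female, against 239 to 258 CPM in the rest, the other 2 females among them at 245 and 251 CPM. Gpx3 and Prdx3 were higher in females over the 4 groups, and sets of 3 mice of 1 sex were not examined this way. Prdx5 was at 358 CPM in WT DCZ 5, a male, against 252 to 290 CPM in the rest, and without that library the Prdx5 difference of Th-Cre DCZ from WT DCZ lost its call (log2 fold change -0.19, adjusted p = 0.107). All 4 libraries were WT.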

How the results depend on the processing

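Over all alternatives 2493 values kept their direction and their side of the threshold, 39 passed the threshold only under the alternative, 70 passed it only in the fit as reported and 68 changed sign, of which 36 were fits without 1 library. The cause of these changes was not tested, and the subsets also held fewer libraries. After saline, 5 called members between the genotypes became 2 in males alone, 0 in females alone, 1 without the libraries with muscle transcripts and 3 with the length trend removed, and 7 with upper-quartile factors or DESeq2 (Gpx3 and Prdx1 gained) and 6 with the stricter filter or the compared groups alone (Gpx3 gained). After DCZ, 2 became 4 with upper-quartile factors or DESeq2, 1 with no filter or no term for sex, 0 in the compared groups alone, in males alone, in females alone and without the muscle libraries, and 0 to 4 without 1 library. Over both treatments, 7 became 4 in males alone and 3 in females alone, 6 with no term for sex, and 8 with upper-quartile factors, the stricter filter, DESeq2 or limma-voom (Sod3 gained). With a muscle term the counts stayed at 5, 2 and 7. Over all genes, the 3270 calls between the genotypes after saline lay between 2349 and 4270 without 1 library and between 6 and 3495 under the other settings. The 1808 calls after DCZ lay between 850 and 2443 and between 30 and 2155, and the 4994 calls over both treatments between 4400 and 5520 and between 908 and 5122. No paired analysis was possible because mouse numbers are not shared between the groups.

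Of the sign changes 2 concerned a called value, that of Sod1 with the length trend removed (0.01091 after saline, 0.00356 over both treatments). The others, given as log2 differences, concerned values not called in either fit. For Th-Cre saline over WT saline they were Prdx3 with upper-quartile factors (-0.003401), Sod3 (0.001588) and Prdx3 (-0.00716) in males alone, Sod2 in females alone (0.08072), Sod3 (0.07445) and Prdx3 (-0.03207) without the muscle libraries, and Sod2 (-0.08646 to 0.05867) and Prdx3 (-0.002152 to 0.06374) without 1 library. For Th-Cre DCZ over WT DCZ they were Gpx4 in males alone (0.02333) and Gpx4 (0.05601) and Prdx3 (0.0136) with the length trend removed. For Th-Cre DCZ over Th-Cre saline they were Sod3 (-0.06911), Prdx1 (0.00121) and Prdx3 (-0.02033) in males alone, Gpx4 (-0.04825) and Prdx5 (0.01691) in females alone, Sod3 (-0.003662), Prdx5 (0.09005) and Txnrd1 (-0.009142) without the muscle libraries, Prdx5 with a muscle term (0.03015) or the length trend removed (0.00679), and without 1 library Sod3 (-0.001845 to 0.1722), Prdx1 (-0.05915 to 0.01079), Prdx3 (-0.00974 to 0.02793) and Prdx5 (-0.03328 to 0.03168). For WT DCZ over WT saline they were Prdx1 with upper-quartile factors (-0.002998), without the muscle libraries (-0.003348) and with a muscle term (-0.00175), Gpx3 (-0.08854) and Prdx1 (-0.07944) in males alone, and without 1 library Gpx3 (-0.06031 to 0.18), Sod2 (-0.00708 to 0.1657) and Prdx1 (-0.02635 to 0.03037). For the difference of the DCZ effects they were Prdx1 in males alone (0.08065), Gpx3 in females alone (-0.1031), Sod1 with the length trend removed (-0.0147), and without 1 library Gpx3 (-0.07385 to 0.1666) and Prdx1 (-0.06376 to 0.005789). Over both treatments it was Prdx3 with the length trend removed (0.07457). For males over females they were Prdx1 without the muscle libraries (-0.03893), Sod2 with the length trend removed (0.01694), and without 1 library Sod2 (-0.06281 to 0.008114), Prdx1 (-0.0008622 to 0.03402) and Txnrd1 (-0.03531 to 0.01154). The muscle and length settings were chosen after the data were seen.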
